A study of Mus musculus with 73 samples.

Results

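Gab1 and Smoc1 were followed through mouse embryos at E6.5, in the epiblast (Epi), which forms the body, and in the extraembryonic ectoderm (ExE), which forms part of the placenta. The 2 genes were taken by name from the 30546 genes of the deposited allele-specific table. RNA of each tissue of single embryos was sequenced, 35 epiblast and 37 ExE libraries in 12 groups of genotype, cross and tissue. Every embryo was a hybrid of BDF1 and CAST, a strain of another mouse subspecies, so that reads over polymorphisms could be given to the maternal or the paternal allele.

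The main wild type cross, Bdf1xCast, had BDF1 mothers and CAST fathers, with zygotes made by injection of thawed sperm and transferred as blastocysts to CD-1 females. It gave 7 epiblast and 7 ExE libraries. The knockouts were made in zygotes of the same cross by injecting Cas9 mRNA with guide RNAs against several exons, so each embryo carried its own lesions. ΔDnmt1 embryos gave 3 epiblast and 3 ExE libraries, ΔG9a-Glp embryos 6 and 8, ΔRnf2 embryos 6 and 5, and ΔEed embryos 9 and 10. The reciprocal wild type cross, CastxBdf1, with CAST mothers and BDF1 fathers, gave 4 libraries of each tissue. It came from natural mating, so the direction of the cross and the mode of fertilisation cannot be told apart. Epiblast and ExE libraries of the same embryo number come from the same embryo.

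Genomic imprinting is the expression of a gene from the copy of 1 parent. Canonical imprints rest on DNA methylation set down in the egg or sperm. Noncanonical imprints are known to start from histone H3 lysine 27 trimethylation in the egg, which silences the maternal copy in the early embryo, and several of them persist only in extraembryonic tissue. Dnmt1 copies DNA methylation at replication. G9a and Glp, encoded by Ehmt2 and Ehmt1, methylate histone H3 lysine 9. Eed is a core subunit of Polycomb repressive complex PRC2, which methylates H3 lysine 27, and Rnf2 is a catalytic subunit of PRC1, which ubiquitinates histone H2A.

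Gab1 encodes a docking adaptor that couples receptor tyrosine kinases to Grb2, the phosphatase Ptpn11 and phosphatidylinositol 3-kinase, and it is needed for a normal placenta. Smoc1 encodes a secreted calcium-binding matrix protein of the SPARC family that restrains signalling by bone morphogenetic proteins (BMPs). In the deposited table (mm10) Gab1 spans chromosome 8, positions 80764431 to 80880519, and Smoc1 spans chromosome 12, positions 81026808 to 81186414. The gene model Gm31105 overlaps the 5′ end of Gab1. Whether counting used strand is not stated, so reads of the overlap cannot be assigned to 1 of the 2, and Gm31105 held on average at most 0.147 reads per 1000000 in wild type ExE. Smoc1 overlaps no other gene of the table.

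The sequence before the annotated start of Gab1 is shown for its CpG sites, the sequence on which Dnmt1 acts. Where transcripts start in these tissues was not measured. RefSeq (GRCm38.p6) places these 250 bases on the minus strand at chr8:80880520-80880769, and a second start gives a window at positions 80880480 to 80880729 with 25 CpG. GC boxes, the letters GGGCGG, are in capitals.
Gab1 promoter: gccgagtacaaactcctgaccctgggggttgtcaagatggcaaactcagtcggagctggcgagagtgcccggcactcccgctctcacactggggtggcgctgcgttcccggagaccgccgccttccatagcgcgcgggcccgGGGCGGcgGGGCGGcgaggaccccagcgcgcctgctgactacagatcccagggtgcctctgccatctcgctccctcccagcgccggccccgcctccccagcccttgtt
This window is 70.8% G and C and holds 24 CpG dinucleotides, the sites of DNA methylation. Of all 32851 promoter windows of 250 bases in the table, 12% held as many CpG, and the median was 6. Searched on both strands, GGGCGG occurred 2 times, and 32.7% of all windows held it. TGCCGC, the letters that the imprint-protecting protein Zfp57 binds when methylated, did not occur in it and was present in 8.68% of windows. TATAAA did not occur either and was present in 12.4% of windows.

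The maternal share is the percentage of a gene's allelic reads that came from the mother's allele, given for libraries with at least 10 reads of the gene. In wild type Bdf1xCast epiblast Gab1 was read from both alleles, with maternal shares from 38.6% to 54.3% and a median of 51.0%. In ExE of the same embryos the shares ran from 2.04% to 10.9% with a median of 4.78%. No ExE library reached the lowest epiblast library. The means were 47.6% ± 6.13 (SD, n = 7) in epiblast and 5.91% ± 2.87 (SD, n = 7) in ExE.

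The reciprocal cross gave the same parental direction with the strains exchanged. In CastxBdf1 ExE the maternal Gab1 shares of embryos 1 to 4 were 2.05%, 7.63%, 3.85% and 2.41%. All 4 lay within the Bdf1xCast range, so the low allele followed the mother and not the strain. In CastxBdf1 epiblast the shares were 42.6%, 21.8%, 54.3% and 64.9%, and embryo 2 stood below every other wild type epiblast.

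With both crosses in 1 fit, a gene was called when its adjusted p was below 0.05 (edgeR's quasi-likelihood test of the counts of the 2 alleles, Benjamini-Hochberg adjustment over all genes tested). The maternal over paternal ratio of Gab1 in ExE was -4.24 on the log2 scale (SE 0.23, adjusted p = 2.80e-06 by edgeR), where 0.913% of genes were called. In epiblast it was -0.29 (SE 0.22, adjusted p = 1.00), with 0.319% of genes called. The difference between the tissues, -3.88 (SE 0.36, adjusted p = 1.16e-06 by edgeR), was itself called, as it was for 0.291% of genes.

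Smoc1 was the rarer transcript and its wild type ExE reads were almost all paternal. Maternal reads were 8 of 338 summed over the 7 Bdf1xCast libraries and 1 of 243 over the 4 CastxBdf1 libraries. By embryo the Bdf1xCast shares ran from 0% to 5.26% with a median of 2.33%. Embryos 2 and 6 had no maternal read among 47 and 70, which allows shares of up to 6.38% and 4.29%. In CastxBdf1, embryo 1 had 1.54% and the other embryos had 0 of 69, 0 of 61 and 0 of 48 reads, which allow up to 4.35%, 4.92% and 6.25%. These limits count 3 reads and cover counting error only, since amplified reads are not independent molecules. The maternal over paternal ratio was -6.25 on the log2 scale (SE 0.34, adjusted p = 8.26e-13 by edgeR).

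In epiblast Smoc1 often fell under 10 reads. Only 3 of 7 Bdf1xCast libraries had a share, 8.33%, 65.6% and 58.3%, and 2 of 4 CastxBdf1 libraries, 10% and 28.0%. The 5 values span most of the scale, and a parental bias of Smoc1 in wild type epiblast was not detectable at this depth. The fit across tissues did not test it.

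**Figure D1:**
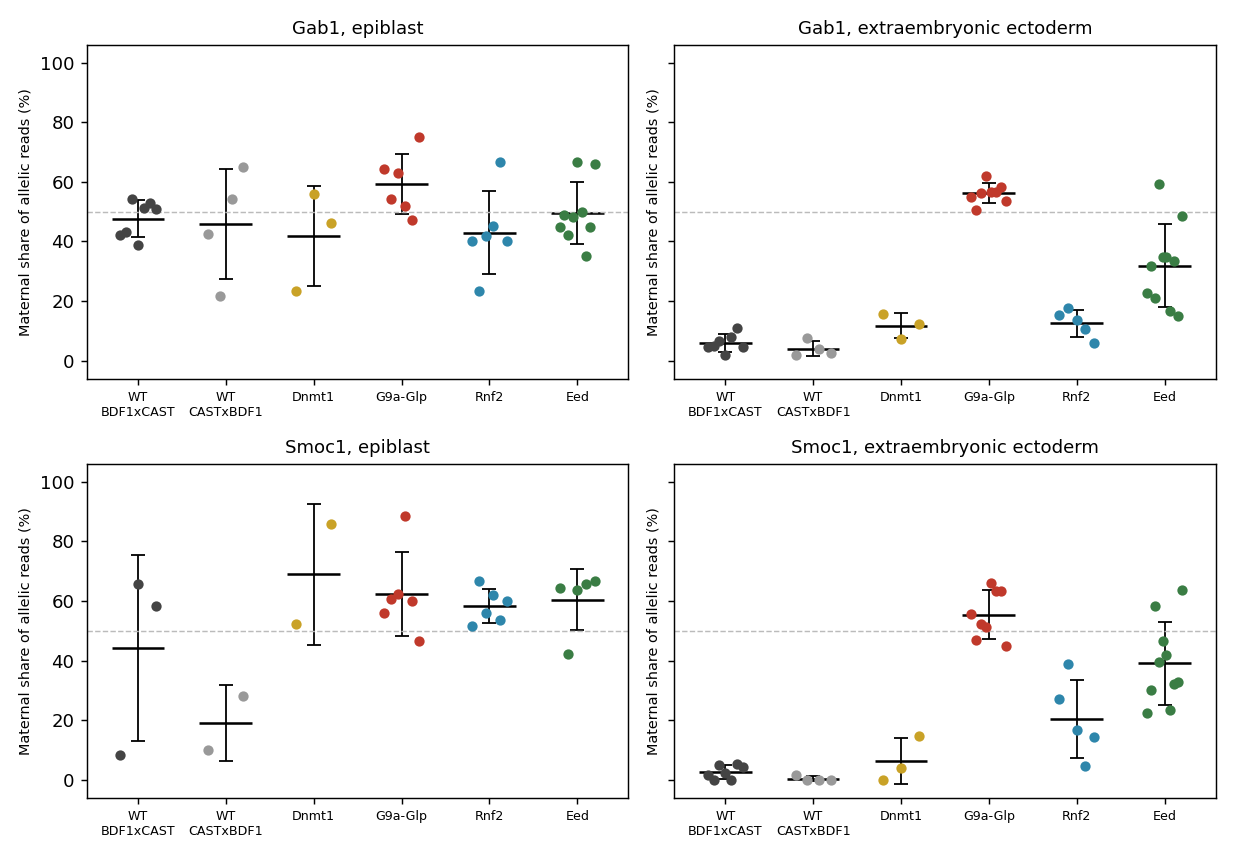
Maternal share (percent of allelic reads, y axis) of Gab1 and Smoc1 in each library with at least 10 reads, by group (x axis), with a point per embryo and bars for the group mean and SD. Wild type ExE lies between 0% and 10.9% for both genes, ΔG9a-Glp ExE between 44.8% and 66.1%, and ΔEed ExE between 15.1% and 63.6%.

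Both genes were also more abundant in ExE than in epiblast. Levels are given as CPM, reads of the gene after each library's allelic reads are scaled to 1000000 in all, so they compare libraries and not the 2 genes, which differ in length and polymorphisms. Gab1 in wild type Bdf1xCast ran from 14.5 to 37.4 CPM in epiblast, median 17.8, and from 146 to 380.1 CPM in ExE, median 184. Every ExE library was above every epiblast library. The rise in ExE was 3.45 on the log2 scale (SE 0.23, 10.9-fold, adjusted p = 1.03e-09 by edgeR). Smoc1 averaged 4.97 ± 4.33 CPM (SD, n = 7) in epiblast and 16.6 ± 4.68 CPM (SD, n = 7) in ExE. It was higher in ExE by 1.81 (SE 0.41, 3.52-fold, adjusted p = 0.00101 by edgeR), and 6 of 7 ExE libraries were above all 7 epiblast libraries. Between these tissues 56.7% of all genes were called, so a call of this kind is common. In bulk tissue, fewer cells that express a gene and less RNA per cell cannot be told apart.

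Loss of G9a-Glp brought the maternal Gab1 allele in ExE up to the paternal level. Maternal shares in the 8 ΔG9a-Glp ExE libraries ran from 50.6% to 62.0% with a median of 56.4%, and all 8 lay above all 7 wild type libraries. The mean was 56.1% ± 3.35 (SD, n = 8), the smallest SD of the knockout groups in ExE. Summed over libraries, 4655 of 8308 Gab1 reads were maternal, against 274 of 4309 in wild type Bdf1xCast ExE. The log2 maternal over paternal ratio rose by 4.29 (SE 0.21, adjusted p = 9.96e-09 by edgeR), with 1.11% of genes called. The 6 epiblast markers summed to 353 to 644 CPM (reads after scaling each library to 1000000 allelic reads) in these libraries. Their sums were 111 to 297 in wild type Bdf1xCast ExE, 132 to 498 in CastxBdf1 ExE and 711 to 2629 in epiblast. The part of these markers in the ΔG9a-Glp values of both genes was not tested.

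Smoc1 moved in the same 8 libraries, from 44.8% to 66.1% maternal with a median of 53.9%. Summed over libraries, 451 of 818 reads were maternal. None of the 8 overlapped the wild type libraries, and the ratio rose by 5.51 (SE 0.40, adjusted p = 9.54e-12 by edgeR).

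Loss of Eed raised the maternal share of Gab1 in ExE in every embryo, but unevenly. The 10 ΔEed libraries ran from 15.1% to 59.2% with a median of 32.7%, all above the highest wild type library. Embryo 9 was the lowest with 74 maternal reads of 489 (15.1%, 95% Wilson interval 12.2% to 18.6%), and embryo 4 the highest with 756 of 1277 (59.2%, 56.5% to 61.9%). The intervals of these 2 embryos do not overlap, and they cover counting error only. The ratio rose by 2.83 (SE 0.47, adjusted p = 0.00214 by edgeR), with 2.73% of genes called. In ΔEed ExE the ExE markers summed to 299 to 611 CPM against 561 to 1030 in wild type Bdf1xCast. The visceral endoderm markers summed to 335 to 1473 against 219 to 526, and the epiblast markers to 337 to 613 against 111 to 297. CastxBdf1 ExE had 783 to 821, 438 to 1247 and 132 to 498 CPM in that order. The part of these markers in the ΔEed values of both genes was not tested.

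Smoc1 in ΔEed ExE ran from 22.5% to 63.6% maternal with a median of 36.1%, and 320 of 770 reads were maternal in all. All 10 embryos were above all wild type embryos. The rise was 4.62 (SE 0.49, adjusted p = 5.41e-08 by edgeR). The highest Smoc1 shares were in embryos 10 (63.6%) and 3 (58.2%), where Gab1 was at 48.4% and 21.1%.

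In ΔDnmt1 ExE the change of either gene did not pass the test. Gab1 shares of embryos 1, 2 and 3 were 15.6%, 7.32% and 12.3%, of which 2 lay above all wild type embryos. The log2 ratio differed from wild type by 1.05 (SE 0.44, adjusted p = 0.534 by edgeR), with 0.973% of genes called. Smoc1 shares were 0%, 3.85% and 14.8%, and the ratio differed by 1.48 (SE 0.85, adjusted p = 0.690 by edgeR). The 0% is 0 of 43 reads and allows up to 6.98%. A targeted gene counted as low when under the second lowest wild type Bdf1xCast library of the tissue. A low value could thus lie within the wild type range. The targeted gene was not low in ExE of embryo 1, at 47.9 CPM of Dnmt1 against a wild type mean of 47.5, while embryos 2 and 3 had 34.5 and 5.16 CPM. Without embryo 1 the Gab1 difference was 0.77 (adjusted p = 0.818 by edgeR) and that of Smoc1 2.16 (adjusted p = 0.402). Without embryo 3 the Smoc1 difference changed sign, to -0.64 (adjusted p = 0.966).

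In ΔRnf2 ExE the shares of both genes spread from the wild type range upward. Gab1 shares of embryos 2, 4, 5, 6 and 7 were 15.3%, 17.6%, 13.5%, 10.7% and 5.85%, of which 3 exceeded all wild type embryos. The difference was 1.13 (SE 0.39, adjusted p = 0.315 by edgeR), with 0.811% of genes called. Smoc1 shares of the same embryos were 27.2%, 38.8%, 16.7%, 4.58% and 14.4%. Of these, 4 of 5 exceeded all wild type embryos, embryo 6 being the exception.

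The Smoc1 difference in ΔRnf2 ExE was 3.30 (SE 0.76) and fell just outside the threshold (adjusted p = 0.0536 by edgeR). Without embryo 6 it was 3.75 (adjusted p = 0.000526), and no other single library left out brought it past the threshold. DESeq2 gave 3.23 (adjusted p = 0.00209). Rnf2 itself was at 29.5, 22.4, 39.5, 62.7 and 21.9 CPM in these embryos against a wild type mean of 45.5, and was not low in embryos 2, 5 and 6. In embryos 4 and 7 it was low by the rule given above, yet above the lowest wild type library (21.4 CPM). With embryos 4 and 7 alone the Smoc1 difference was 3.86 (adjusted p = 0.00532 by edgeR) and that of Gab1 1.02 (adjusted p = 0.869).

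The 2 alleles were then compared with wild type each on its own. Maternal Gab1 in wild type Bdf1xCast ExE averaged 13.2 ± 9.26 CPM (SD, n = 7), with values from 2.98 to 30.0. It was between 182 and 274 CPM in ΔG9a-Glp (223 ± 32.2, SD, n = 8) and between 29.1 and 244 CPM in ΔEed (90.4 ± 66.7, SD, n = 10). All 8 ΔG9a-Glp libraries and 9 of 10 ΔEed libraries were above the highest wild type library. The rise was 4.01 on the log2 scale in ΔG9a-Glp (SE 0.32, 16.1-fold, adjusted p = 4.21e-08 by edgeR) and 2.63 in ΔEed (SE 0.50, 6.18-fold, adjusted p = 0.000744 by edgeR). Of all genes, 12.2% and 34.4% were called for the maternal level in these comparisons.

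Maternal Gab1 was at 25.4 ± 9.99 CPM (SD, n = 3) in ΔDnmt1 and at 23.8 ± 13.0 CPM (SD, n = 5) in ΔRnf2. Neither passed the test, with differences of 0.70 (adjusted p = 0.378) and 0.80 (adjusted p = 0.225) by edgeR, where 15.5% and 16.9% of genes were called.

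Maternal Smoc1 rose from 0.390 ± 0.355 CPM (SD, n = 7) in wild type to 22.1 ± 9.68 (SD, n = 8) in ΔG9a-Glp and 11 ± 7.17 (SD, n = 10) in ΔEed. Every knockout library in both groups was above every wild type library. The fitted rises were 5.59 (SE 0.42, adjusted p = 5.18e-09 by edgeR) and 4.50 (SE 0.56, adjusted p = 3.13e-06 by edgeR), from a base of 8 wild type reads in all. The averages of 1.34 ± 1.84 CPM in ΔDnmt1 (SD, n = 3) and 4.76 ± 5.19 CPM in ΔRnf2 (SD, n = 5) were below the read filter of the test.

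No change of the paternal allele of either gene passed the test in any knockout. Paternal Gab1 was at 197.5 ± 70.7 CPM (SD, n = 7) in wild type, 176 ± 39.8 (SD, n = 8) in ΔG9a-Glp, 170.2 ± 23.2 (SD, n = 10) in ΔEed, 189 ± 4.57 (SD, n = 3) in ΔDnmt1 and 155.5 ± 27.7 (SD, n = 5) in ΔRnf2. The differences were -0.23 (adjusted p = 0.396), -0.37 (adjusted p = 0.0793), -0.31 (adjusted p = 0.395) and -0.39 (adjusted p = 0.156) by edgeR in that order. That of ΔEed passed without ΔEed embryo 10 (-0.41, adjusted p = 0.0437) or without wild type embryo 4 (-0.44, adjusted p = 0.0445). Paternal Smoc1 was at 16.2 ± 4.76 CPM (SD, n = 7) in wild type and between 15.4 and 18.8 on average in the knockouts. Its differences ran from -0.22 to 0.07 with adjusted p from 0.470 to 0.976 by edgeR. Paternal levels of 11.1% of all genes were called in ΔG9a-Glp, 34.0% in ΔEed, 15.8% in ΔDnmt1 and 18.7% in ΔRnf2.

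In epiblast the allelic balance of Gab1 was not called as changed in any knockout. Its maternal shares ran from 47.2% to 74.9% in ΔG9a-Glp (median 58.6%), from 35.2% to 66.7% in ΔEed (median 48.1%) and from 23.3% to 66.8% in ΔRnf2 (median 41.0%). The ΔDnmt1 embryos had 23.4%, 55.9% and 46.2%. All 4 ranges overlapped wild type. The differences were 0.70 for ΔG9a-Glp (SE 0.26, adjusted p = 0.235), 0.09 for ΔEed (adjusted p = 0.984), -0.28 for ΔRnf2 (adjusted p = 0.900) and -0.53 for ΔDnmt1 (adjusted p = 0.868) by edgeR. In these comparisons 1.90%, 1.11%, 0.609% and 1.01% of genes were called.

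Smoc1 reached 10 reads in every ΔG9a-Glp and ΔRnf2 epiblast library. Its shares ran from 46.7% to 88.7% in ΔG9a-Glp (median 60.3%) and from 51.7% to 66.7% in ΔRnf2 (median 58.0%). The 5 of 9 ΔEed libraries with 10 reads had 64.3%, 42.2%, 63.6%, 65.6% and 66.7%, and the 2 of 3 ΔDnmt1 libraries 52.2% and 85.7%. Both alleles were thus read in each of these libraries. The differences from wild type were 0.26 (adjusted p = 0.961), -0.10 (adjusted p = 0.994) and 0.19 (adjusted p = 0.986) by edgeR for ΔG9a-Glp, ΔRnf2 and ΔEed, and ΔDnmt1 had too few reads for the test.

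Whether the knockouts acted differently in the 2 tissues was tested as the ExE change minus the epiblast change. For ΔG9a-Glp it was 3.60 for Gab1 (SE 0.40, adjusted p = 4.02e-06 by edgeR) and 5.22 for Smoc1 (SE 0.80, adjusted p = 9.56e-05 by edgeR), with 0.337% of genes called. For ΔEed it was 2.78 for Gab1 (SE 0.66, adjusted p = 0.0272 by edgeR) and 4.41 for Smoc1 (SE 0.83, adjusted p = 0.00129 by edgeR), with 0.890% of genes called. The ΔEed call of Gab1 was lost when 1 of 5 epiblast libraries was left out: ΔEed embryo 8 (2.61, adjusted p = 0.0607) or wild type embryos 3 (2.73, 0.0578), 6 (2.75, 0.0551), 7 (2.72, 0.0558) or 8 (2.75, 0.0541). The Smoc1 calls rest on few wild type epiblast reads, 77 in all of which 45 were maternal, and were not made by limma on log ratios (adjusted p = 0.103 for ΔG9a-Glp and 0.149 for ΔEed).

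For ΔRnf2 the tissue difference was 1.41 for Gab1 (adjusted p = 0.595) and 3.25 for Smoc1 (adjusted p = 0.254) by edgeR, with 0.312% of genes called. For ΔDnmt1 it was 1.72 for Gab1 (adjusted p = 0.751 by edgeR). No gene was called in that ΔDnmt1 fit (0.00%, 0 of 6405 by edgeR, 331 at an unadjusted p under 0.05, 2 by DESeq2 and 1 by limma).

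The knockouts were next compared with each other in ExE. The Gab1 maternal over paternal ratio was higher in ΔG9a-Glp than in ΔEed by 1.47 (SE 0.33, adjusted p = 0.0256 by edgeR), and 2.49% of genes were called. The call was lost without ΔG9a-Glp embryo 4 (1.42, adjusted p = 0.0557). Smoc1 was higher by 0.89 (SE 0.28), which did not pass the test (adjusted p = 0.0970 by edgeR) and did pass without ΔEed embryo 10 (1.04, adjusted p = 0.0232) or embryo 3 (1.04, adjusted p = 0.0370), the embryos with the highest Smoc1 shares.

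Against ΔDnmt1, ΔG9a-Glp was higher by 3.24 for Gab1 (SE 0.17, adjusted p = 9.58e-11 by edgeR) and by 3.99 for Smoc1 (SE 0.53, adjusted p = 2.62e-05 by edgeR), in a comparison with 0.361% of genes called. Between the Polycomb knockouts, ΔEed was higher than ΔRnf2 by 1.70 for Gab1 (SE 0.49, adjusted p = 0.274 by edgeR) and by 1.37 for Smoc1 (SE 0.52, adjusted p = 0.456 by edgeR), with 0.253% of genes called. The Gab1 difference passed in DESeq2 (1.68, adjusted p = 0.0496).

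The total level of both genes rose in ΔG9a-Glp, in ExE and also in epiblast. In ExE, Gab1 ran from 334 to 541 CPM (median 394) against 146 to 380.1 in wild type, and 5 of 8 libraries were above all wild type libraries. It rose by 0.86 (SE 0.17, 1.82-fold, adjusted p = 0.00156 by edgeR). Smoc1 ran from 23.1 to 70.9 CPM (median 35.8) against 8.22 to 23.3 and rose by 1.20 (SE 0.22, 2.30-fold, adjusted p = 0.000802 by edgeR), with 7 of 8 libraries above all wild type libraries. In this comparison 15.1% of genes were called.

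In ΔG9a-Glp epiblast Gab1 ran from 65.4 to 316 CPM (median 121), every library above the wild type maximum of 37.4. The rise was 2.83 (SE 0.32, 7.13-fold, adjusted p = 6.33e-06 by edgeR). Both alleles were higher, the maternal one at 88.5 ± 58.0 CPM against 9.71 ± 4.31 and the paternal one at 59.7 ± 36.7 against 10.6 ± 3.94 (SD, n = 6 and n = 7). Smoc1 rose by 1.85 (SE 0.42, 3.60-fold, adjusted p = 0.00247 by edgeR), to between 10.5 and 23.2 CPM, with 5 of 6 libraries above all wild type libraries. Of all genes, 34.4% were called there. Without embryos 2 and 7, in which neither targeted gene was low in epiblast, the rises were 3.13 (adjusted p = 6.60e-06) and 1.78 (adjusted p = 0.0172). In embryos 3, 4 and 5 Ehmt1 was low and Ehmt2 was not, at 2.85, 3.10 and 2.45 CPM against a wild type mean of 3.07. Ehmt1 of embryos 4 and 5, at 19.0 and 17.1 CPM, still lay above the lowest wild type library (14.5 CPM). Visceral endoderm markers summed to 151 to 565 CPM in ΔG9a-Glp epiblast (median 299), against 75.5 to 952 in wild type Bdf1xCast (median 113), and their part in the rises was not tested. In embryos 1, 2, 3, 4, 5 and 7 these sums were 182, 461, 415, 151, 565 and 173 CPM. Gab1 was at 137, 65.4, 316, 90.2, 175 and 105.6 CPM in the same order.

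In ΔEed the totals of both genes were not called. The differences in ExE were 0.16 for Gab1 (adjusted p = 0.545) and 0.52 for Smoc1 (adjusted p = 0.0906) by edgeR, with 40.8% of genes called. The Smoc1 value passed without ΔEed embryo 1 (0.59, adjusted p = 0.0476) or embryo 8 (0.60, adjusted p = 0.0458). In epiblast they were 0.12 (adjusted p = 0.755) and 0.26 (adjusted p = 0.671), with 36.8% of genes called.

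In ΔRnf2 epiblast Gab1 ran from 19.4 to 111 CPM (median 30.8) and was called higher by 1.21 (SE 0.37, 2.31-fold, adjusted p = 0.0206 by edgeR), with 30.9% of genes called. Only 2 of 6 libraries were above all wild type libraries. Without embryo 6, at 111 CPM, the difference was 0.76 (adjusted p = 0.0601). Visceral endoderm markers summed to 659 CPM in embryo 6 and 658 CPM in embryo 8, against 269 to 386 in the other ΔRnf2 epiblast libraries. All 6 were above the 75.5 to 195 CPM of 6 of 7 wild type Bdf1xCast epiblasts, embryo 8 of which had 952, and the part of these markers in the Gab1 level was not tested. Smoc1 there differed by 0.15 (adjusted p = 0.844). In ΔRnf2 ExE the differences were -0.28 (adjusted p = 0.339) and 0.25 (adjusted p = 0.497) by edgeR, with 22.2% of genes called.

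In ΔDnmt1 the totals of both genes were not called. The differences were -0.22 for Gab1 (adjusted p = 0.577) and 0.05 for Smoc1 (adjusted p = 0.928) in ExE, with 18.5% of genes called. In epiblast they were 0.12 (adjusted p = 0.874) and 0.72 (adjusted p = 0.507) by edgeR, with 14.0% of genes called.

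**Figure D2:**
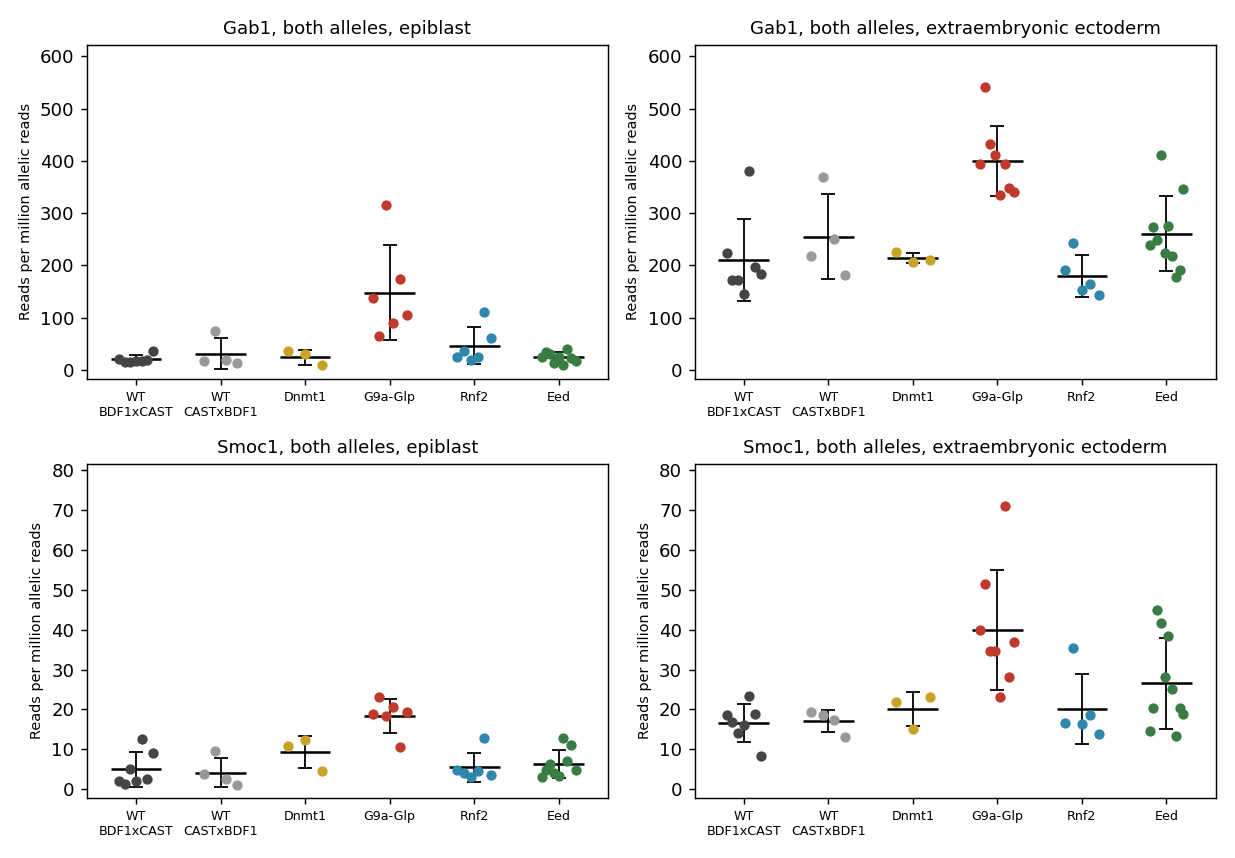
Total level (CPM, y axis, linear from 0) of Gab1 and Smoc1 in each library by group (x axis), with a point per embryo and bars for the group mean and SD. ΔG9a-Glp epiblast stands above wild type epiblast for Gab1 (65.4 to 316 against 14.5 to 37.4), and ΔEed ExE overlaps wild type ExE for both genes.

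From high to low, the order of the groups by mean maternal share of Gab1 was ΔG9a-Glp epiblast (59.3%), ΔG9a-Glp ExE (56.1%), ΔEed epiblast (49.7%), Bdf1xCast epiblast (47.6%), CastxBdf1 epiblast (45.9%), ΔRnf2 epiblast (42.9%), ΔDnmt1 epiblast (41.8%), ΔEed ExE (31.8%), ΔRnf2 ExE (12.6%), ΔDnmt1 ExE (11.7%), Bdf1xCast ExE (5.91%) and CastxBdf1 ExE (3.99%). Neighbours in this order differed by more than the larger of their SDs at 2 places, ΔEed over ΔRnf2 ExE and ΔDnmt1 over Bdf1xCast ExE. For total Gab1 this was so for ΔG9a-Glp over ΔEed ExE (399.5 against 261 CPM) and for ΔG9a-Glp over ΔRnf2 epiblast (148 against 46.4 CPM). For the Smoc1 share it was so for ΔEed over ΔRnf2 ExE (39.1% against 20.3%), CastxBdf1 epiblast over ΔDnmt1 ExE (19.0% against 6.22%) and Bdf1xCast over CastxBdf1 ExE (2.65% against 0.385%). For total Smoc1 the only such gap lay between Bdf1xCast ExE (16.6 CPM) and ΔDnmt1 epiblast (9.25 CPM). At every one of these gaps the ranges of the 2 groups overlapped. The tests above called neither gene's ratio for ΔEed over ΔRnf2 ExE, nor that of Gab1 in ΔDnmt1 ExE. Only 2 CastxBdf1 epiblasts had a Smoc1 share, and the wild type ExE shares of Smoc1 rest on 8 and 1 maternal reads.

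The shares of the 2 genes were also compared within embryos. In ΔEed ExE the Smoc1 share was above the Gab1 share in 6 of 10 embryos, in ΔG9a-Glp ExE in 4 of 8, in ΔRnf2 ExE in 4 of 5, and in wild type ExE in 1 of 7 Bdf1xCast and 0 of 4 CastxBdf1 embryos. Across the 10 ΔEed embryos the correlation of the shares was r = 0.418 (permutation p = 0.230, adjusted 0.335) and rho = 0.467 (permutation p = 0.180, adjusted 0.197). Across the 8 ΔG9a-Glp embryos it was r = 0.403 (exact permutation p = 0.335, adjusted 0.335) and rho = 0.524 (exact permutation p = 0.197, adjusted 0.197). These 2 relations were all that were computed, both two-sided, and neither passed. Leaving out the 2 embryos farthest from the median Gab1 share gave r = 0.565 (without embryos 4 and 9) and r = 0.816 (without embryos 2 and 4).

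**Figure D3:**
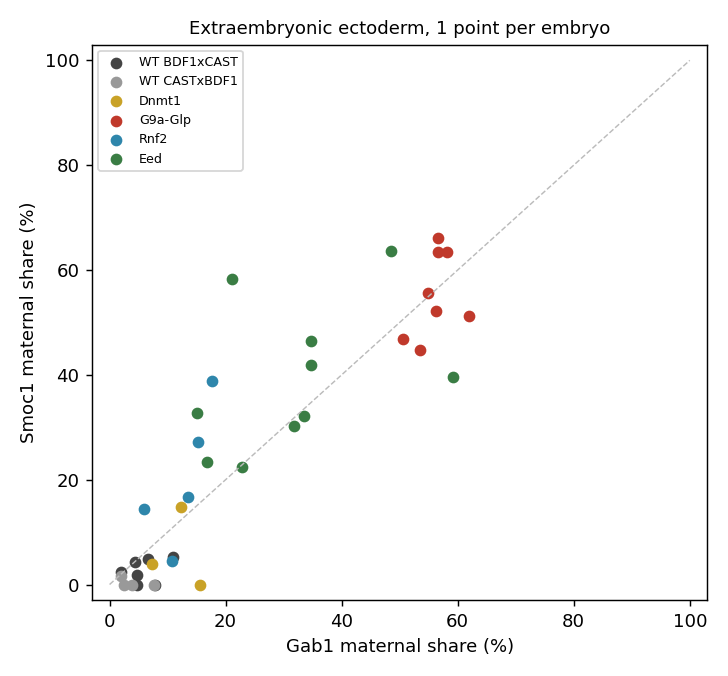
Maternal share of Smoc1 (percent, y axis) against that of Gab1 (percent, x axis) in ExE, with a point per embryo and a colour per group. Wild type embryos sit in the lower left corner and ΔG9a-Glp embryos between 44.8% and 66.1% on both axes. ΔEed embryos are spread from 15.1% to 59.2% for Gab1 and from 22.5% to 63.6% for Smoc1.

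The other noncanonical imprints in the table, Sfmbt2 (a Polycomb-group protein), Jade1 (a subunit of a histone acetyltransferase complex) and Slc38a4 (an amino acid transporter), were read as reference points. All 3 were paternal in wild type ExE, and the maternal over paternal ratio of all 3 rose in ΔG9a-Glp ExE. The rises were 10.29 for Sfmbt2 (adjusted p = 1.85e-08), 3.91 for Jade1 (adjusted p = 6.07e-18) and 6.29 for Slc38a4 (adjusted p = 0.00116) by edgeR, next to 4.29 for Gab1 and 5.51 for Smoc1. The maternal shares reached 41.0%, 46.6% and 29.9% on average, all under the 56.1% of Gab1 and 55.4% of Smoc1. In ΔEed ExE 2 of 3 were called, Sfmbt2 (9.69, adjusted p = 1.93e-09) and Jade1 (3.00, adjusted p = 3.02e-05), while Slc38a4 had 4.05 (adjusted p = 0.165).

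In ΔDnmt1 ExE 2 of 3 were called. Jade1 (2.07, adjusted p = 0.000179) and Slc38a4 (5.84, adjusted p = 0.00350) passed there by edgeR. Sfmbt2 (5.35), Gab1 and Smoc1 did not, and this difference between genes was not tested. In ΔRnf2 ExE Sfmbt2 was called (6.68, adjusted p = 0.00365), with a maternal share of 4.88%. Jade1 there had 0.98 (adjusted p = 0.355) and Slc38a4 2.93 (adjusted p = 0.508). The median change of the 3 genes was 6.29 in ΔG9a-Glp, 4.05 in ΔEed, 5.35 in ΔDnmt1 and 2.93 in ΔRnf2 ExE, beside medians of -0.01 or nearer to 0 over all genes.

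No tested gene around Gab1 or Smoc1 was called for the parental bias that these 2 genes had. Within 500 kb of Gab1 the table held 14 genes, of which 3 had enough reads in ExE, Smarca5 (25.0 kb away, a chromatin remodelling ATPase), Gm31223 and Usp38. Within 500 kb of Smoc1 it held 21 genes, of which 9 were tested, 7 of them in ΔDnmt1. None was called for parental bias in wild type ExE or for a change of the ratio in ΔG9a-Glp, ΔEed, ΔDnmt1 or ΔRnf2 ExE, by edgeR, DESeq2 or limma. Over all genes, edgeR called 0.913% for the parental bias in wild type ExE. For the changes it called 1.11%, 2.73%, 0.973% and 0.811% in that order. At such shares, 0 calls among so few tested genes say little about these 2 regions. At an unadjusted p under 0.05 in edgeR there was 1 in wild type (Cox16), 1 in ΔEed (Synj2bp-cox16) and 2 in ΔDnmt1 (both), all near Smoc1, and 0 near Gab1.

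Smarca5, the nearest tested neighbour of Gab1, had a bias that followed the strain. Its maternal share was 88.9% ± 6.35 (SD, n = 7) in Bdf1xCast and 16.8% ± 11.2 (SD, n = 4) in CastxBdf1 ExE, and 87.4% ± 5.77 (SD, n = 8) in ΔG9a-Glp. Srsf5, a splicing factor 76.3 kb from Smoc1, behaved alike with 81.3% ± 2.93 (SD, n = 7) and 15.7% ± 3.54 (SD, n = 4). Usp38, a deubiquitinase 100.2 kb from Gab1, was balanced with 49.4% ± 9.18 (SD, n = 7) in Bdf1xCast ExE, as was Med6, a Mediator subunit 387 kb from Smoc1, with 51.3% ± 5.05 (SD, n = 7).

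Total levels of the neighbours changed in a few cases. Near Smoc1, 2 of 10 tested genes were called in ΔG9a-Glp ExE (Plekhd1 and Synj2bp) and 3 of 11 in ΔEed ExE (Plekhd1os, Plekhd1 and Med6), beside 15.1% and 40.8% of all genes. Near Gab1, 0 of 3 were called in either, also by DESeq2, and Smarca5 alone had an unadjusted p under 0.05, in ΔEed.

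**Figure D4:**
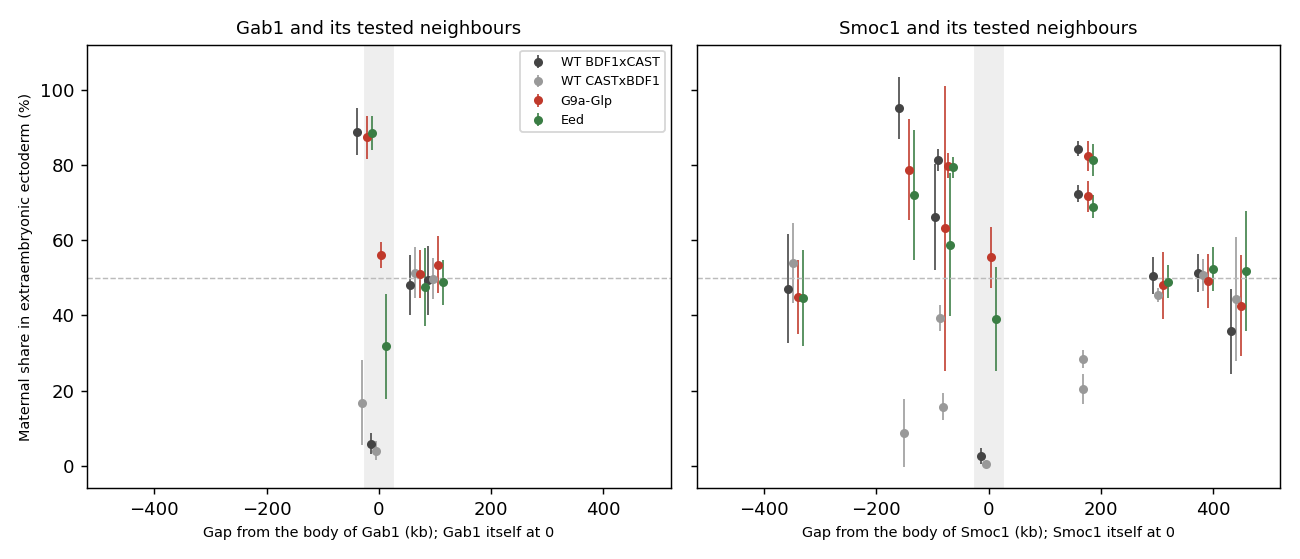
Maternal share in ExE (percent, y axis) of Gab1, Smoc1 and the tested genes around them, against the gap between gene bodies (kb, x axis, points of a gene set side by side), with group mean and SD for both wild type crosses, ΔG9a-Glp and ΔEed. Gab1 and Smoc1 move from 5.91% and 2.65% to 56.1% and 55.4% in ΔG9a-Glp, and Smarca5 stays at 88.9% and 87.4%.

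The genes whose mean maternal share over the 12 groups was most like that of Gab1, out of 6331 autosomal genes with enough reads, were Jade1 (Pearson r = 0.965), Kbtbd2 (0.878), Platr4 (0.847), Sfmbt2 (0.813) and Cdk5 (0.804). Of these, Jade1, Platr4 and Sfmbt2 were paternal in wild type ExE, at 5.44%, 13.0% and 0.0551% maternal, while Kbtbd2 (42.2%) and Cdk5 (45.7%) were near balance. For Smoc1, out of 6332 genes, they were Ttc13 (0.906), Chd6 (0.880), Platr4 (0.873), Uck2 (0.871) and Rprd2 (0.870). Of these only Platr4 was paternal in wild type ExE. Ttc13 (48.4%), Chd6 (44.3%), Uck2 (48.9%) and Rprd2 (46.2%) were near balance there. Smoc1 itself had too few epiblast reads for the rule that these genes passed. The 12 means share libraries and tissues, and the values describe likeness only.

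Genes that work with Gab1 in receptor tyrosine kinase signalling were read at the total level. Of the 22 genes listed, such as Grb2, Ptpn11, Fgfr2 and Pdgfra, 18 were tested in ΔG9a-Glp ExE, where 2 rose and 1 fell beside 15.1% of all genes called. In ΔEed ExE 4 rose and 1 fell of 19 tested, a smaller share than the 40.8% of all genes. In ΔDnmt1 ExE 4 rose and 0 fell of 18 (18.5% of all genes), and in ΔRnf2 ExE 0 rose and 1 fell of 18 (22.2% of all genes). The list's median differences were 0.09, -0.02, 0.43 and -0.10 in that order, beside 0.01, 0.02, -0.01 and -0.03 over all genes. Pdgfra, a receptor for platelet-derived growth factor, rose in ΔEed ExE from 0.681 ± 1.08 CPM (SD, n = 7) to 10.2 ± 7.26 (SD, n = 10), by 3.64 (SE 0.64, adjusted p = 0.000118 by edgeR). Fgfr2, the fibroblast growth factor receptor of trophoblast stem cells, fell there from 108 ± 34.5 to 52.9 ± 15.6 CPM (log2 change -1.19, SE 0.19, adjusted p = 4.33e-05 by edgeR). Frs2, an adaptor of these receptors, rose in ΔDnmt1 ExE from 11.5 ± 4.00 to 31.9 ± 8.02 CPM, by 1.22 (SE 0.29, adjusted p = 0.0104 by edgeR). The ExE markers had a median sum of 393 CPM in ΔEed ExE, against 685 in Bdf1xCast and 803 in CastxBdf1 ExE. The part of the ΔEed marker sums in the Pdgfra and Fgfr2 changes was not tested.

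In ΔG9a-Glp epiblast 2 genes of this list rose and 5 fell of 14 tested (34.4% of all genes called), in ΔEed 3 and 4 of 13 (36.8%), in ΔRnf2 2 and 3 of 14 (30.9%), and in ΔDnmt1 1 and 1 of 15 (14.0%). Between wild type tissues 6 were higher and 3 lower in ExE of 16 tested, about the 56.7% of all genes.

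Of 26 genes of the SPARC family and BMP signalling listed for Smoc1, 24 were in the table. In ΔEed ExE 4 rose and 2 fell of 15 tested, about the 40.8% of all genes. In ΔG9a-Glp ExE 1 rose and 0 fell of 14 (15.1% of all genes), in ΔDnmt1 1 rose and 1 fell of 15 (18.5%), and in ΔRnf2 1 rose and 2 fell of 16 (22.2%). The medians were 0.26, 0.09, -0.15 and -0.08, beside 0.02, 0.01, -0.01 and -0.03 over all genes. Id3, a transcriptional target of BMP signalling, rose in ΔEed ExE from 6.03 ± 2.59 CPM (SD, n = 7) to 63.7 ± 22.9 (SD, n = 10), by 3.22 (SE 0.26, adjusted p = 1.05e-08 by edgeR). Fstl1, a secreted SPARC relative, rose there from 3.19 ± 2.73 to 15.5 ± 5.28 CPM, by 2.09 (SE 0.36, adjusted p = 9.36e-05 by edgeR). The part of the ΔEed marker sums in the Id3 and Fstl1 changes was not tested. Smad4, the shared effector of BMP and related signals, fell in ΔDnmt1 ExE from 5.05 ± 1.87 to 2.15 ± 0.551 CPM (log2 change -1.45, SE 0.47, adjusted p = 0.0451 by edgeR).

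In epiblast, 2 rose and 5 fell of 15 in ΔG9a-Glp (34.4% of all genes called), 2 and 6 of 16 in ΔEed (36.8%), 4 and 3 of 17 in ΔRnf2 (30.9%), and 0 and 0 of 15 in ΔDnmt1 (14.0%) by edgeR. Between wild type tissues 4 were higher and 10 lower in ExE of 16 tested, beside 56.7% of all genes.

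Libraries held from 1141414 to 17653087 allelic reads, the deepest being ΔRnf2 epiblast. The targeted gene was low in the epiblast of ΔDnmt1 (4.70 to 11.4 CPM of Dnmt1, wild type mean 33.0) and in both tissues of ΔEed (2.81 to 19.8 CPM of Eed, wild type means 157 and 201). In ΔG9a-Glp ExE Ehmt2 was at 1.65 to 7.15 CPM and Ehmt1 at 4.40 to 26.1 CPM, against 15.4 and 29.3. Ehmt2 was low in every one of these libraries, but Ehmt1 was not low in embryos 2, 7 and 8 (20.8, 26.1 and 21.3 CPM). Ehmt2 of embryos 8 and 10, at 6.49 and 7.15 CPM, still lay above the lowest wild type library (4.33 CPM). Rnf2 was at 19.3 to 33.4 CPM in ΔRnf2 epiblast (wild type mean 45.3), and in ΔG9a-Glp epiblast Ehmt1 was at 4.14 to 50.5 CPM (wild type mean 29.3). Ehmt2, rare in epiblast, was at 1.13 to 5.50 CPM there (wild type mean 3.07) and was low in embryo 1 alone. The 6 epiblast markers summed to 711 to 2629 CPM in epiblast and 111 to 644 in ExE, with 459 to 617 in ΔDnmt1 and 361 to 564 in ΔRnf2 ExE. The 6 of 7 ExE markers in the table summed to at most 245 CPM in epiblast, in ΔDnmt1 embryo 1. The sum was 239 CPM in ΔDnmt1 embryo 2, and the Gab1 shares of these embryos were 23.4% and 55.9%. The 8 visceral endoderm markers ran from 260.0 to 482 CPM in ΔG9a-Glp, 517 to 886 in ΔRnf2 and 336 to 897 in ΔDnmt1 ExE. Maternal decidua and blood markers summed to at most 2.49 CPM in any ExE library, and Prl8a2, a decidual prolactin, was at 0 in every ExE group but ΔEed. In epiblast these markers summed to 1.73 to 27.5 CPM, highest in ΔG9a-Glp embryo 1. Their part in the epiblast maternal shares was not tested. In wild type epiblast the visceral endoderm sum was 3382 CPM in CastxBdf1 embryo 2, the embryo with the low Gab1 share, and 952 CPM in Bdf1xCast embryo 8, against 75.5 to 195 in the other 9. Its part in the Gab1 values of these embryos was not tested.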

How the data were processed

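RNA was amplified from single tissues with SMART-Seq v4, per the labels. The authors deposited counts of reads over polymorphisms per gene and library, with an allelic ratio rounded to 2 decimals and a signed score, the negative log10 of a binomial tail probability. The submitters' processing notes name STAR 2.5.0, HTSeq and mm10. The set of polymorphisms and the use of strand are not given in the sources used here.

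Maternal and paternal counts were recovered from count, ratio and score. Whole reads matched 712263 of 712327 scored values (99.991%, tolerance 0.0015 of the score) and all 133 scored values of Gab1 and Smoc1. Where the score had reached its limit the rounded ratio was used, for 3322 values of other genes that hold 7.48% of reads. CPM scales each library to 1000000 allelic reads.

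Allelic ratios and levels were tested with edgeR 4.0.16 (R 4.3.3) over all autosomal genes. Allelic fits had a term per library and kept a gene if 3 or more libraries of every group held 10 or more of its reads, and level fits used TMM scaling and edgeR's own filter. Alternatives were DESeq2 1.42.0, limma 3.58.1 on log ratios (+ 0.5), no filter, a filter of 50 reads, other scalings, the ratio alone, sex, all groups together, the embryo number as a block, each library left out, and, chosen after seeing the data, libraries left out whose targeted gene was not low. The fits were tested on simulated data.

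Epiblast and ExE of an embryo pair by the label of the embryo, and their deviations correlated over 0.1 in 6 of 7 wild type pairs (0.0216 to 0.546). For ΔEed embryos 7 to 10 the embryo label was used, since the title numbers differ from it. Named genes were the 2 genes, the targets, 3 other noncanonical imprints, neighbours within 500 kb, the 5 most alike genes and up to 3 per pathway list with the largest change in ExE. The genes and lists were chosen with earlier results of these data known. A bisulfite library was not analysed here.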

Additional observations from a re-analysis of the deposited data

Results flagged for a closer look

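Within groups of 4 to 10 libraries, a library was singled out when its gap to the next one was too large a part of the group's range (Dixon's test at 95%). Chance does this in about 1 in 20 groups, and 9 of 38 were singled out. For total Gab1 these were Bdf1xCast epiblast embryo 8 (37.4 CPM), CastxBdf1 epiblast embryo 2 (75.1 CPM), Bdf1xCast ExE embryo 6 (380.1 CPM) and ΔG9a-Glp ExE embryo 2 (541 CPM). For total Smoc1 they were ΔRnf2 epiblast embryo 6 (12.8 CPM) and ΔRnf2 ExE embryo 4 (35.4 CPM). For the maternal share of Smoc1 they were ΔG9a-Glp epiblast embryo 4 (88.7%), ΔEed epiblast embryo 6 (42.2%) and CastxBdf1 ExE embryo 1 (1.54%, a single maternal read). Every other CastxBdf1 ExE library had a Smoc1 share of 0%, so any share above 0% would have been singled out there. The epiblast embryos with high Gab1, CastxBdf1 embryo 2 and Bdf1xCast embryo 8, were also those with the highest visceral endoderm sums of the wild type epiblasts (3382 and 952 CPM). The part of these markers in the Gab1 levels was not tested.

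The allelic effect of 2 knockouts differed between ExE and epiblast of the embryos, by the test of the difference itself in edgeR. The log2 differences were 3.60 for Gab1 and 5.22 for Smoc1 in ΔG9a-Glp, and 2.78 for Gab1 and 4.41 for Smoc1 in ΔEed.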

How the results depend on the processing

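No called result changed sign under any alternative run. Of the settings for allelic results 724 stayed on the same side of the threshold, 18 newly passed it and 10 no longer passed, and of those for levels 598, 5 and 3. Results that did not pass changed sign in 12 of 388 allelic and 23 of 388 level settings. The change of Smoc1 in ΔRnf2 ExE (3.30, adjusted p = 0.0536) passed with all groups in 1 fit (3.27), a filter of 50 reads (3.32), no filter (3.31), the ratio alone (3.32), DESeq2 (3.23) and without the libraries whose targeted gene was not low (3.86), with adjusted p from 1.38e-08 to 0.0476 in these settings. With no filter also Gab1 in ΔRnf2 ExE (1.13), Gab1 (1.70) and Smoc1 (1.37) for ΔEed over ΔRnf2, and Smoc1 for ΔG9a-Glp over ΔEed (0.89) passed, and total Gab1 in ΔRnf2 epiblast did not (1.21, adjusted p = 0.0659). DESeq2 called Gab1 for ΔEed over ΔRnf2 (1.68). limma did not call the tissue difference of Smoc1 in ΔEed (3.30, adjusted p = 0.149) or in ΔG9a-Glp (4.06, adjusted p = 0.103). The cause was not tested. With 1 library left out, the values ran from 2.58 to 2.98 for the tissue difference of Gab1 in ΔEed, from 1.34 to 1.68 and 0.77 to 1.04 for Gab1 and Smoc1 in ΔG9a-Glp over ΔEed, from 2.74 to 3.75 for Smoc1 in ΔRnf2 ExE, from -0.44 to -0.19 for paternal Gab1 in ΔEed, from 0.76 to 1.35 for total Gab1 in ΔRnf2 epiblast and from 0.42 to 0.60 for total Smoc1 in ΔEed ExE, each with calls on both sides of the threshold. The numbers that wild type and knockout embryos share did not correlate over 0.1 in every pair of any comparison. With this replicate block, Gab1 in ΔDnmt1 ExE (1.25) and its maternal level there (1.10), Gab1 in ΔG9a-Glp epiblast (0.95), Gab1 for ΔEed over ΔRnf2 (2.0) and Smoc1 in ΔRnf2 ExE (3.70) passed, and Gab1 in ΔEed ExE (2.77, adjusted p = 0.0672), Gab1 for ΔG9a-Glp over ΔEed (1.56, adjusted p = 0.130) and total Gab1 in ΔRnf2 epiblast (1.03, adjusted p = 0.101) did not. The block of true pairs, ExE with epiblast of an embryo, changed no call of either gene. Counts over all genes moved more than these values. Allelic calls ranged from 152 (limma) to 413 (no filter) around 245 in ΔEed ExE, from 39 to 207 around 97 in ΔG9a-Glp ExE, from 15 to 136 around 75 in ΔDnmt1 ExE, from 15 to 251 around 73 in ΔRnf2 ExE, and from 44 (replicate block) to 154 (no filter) around 79 for wild type ExE. Within 1000 kb, the total level of 1 neighbour of Gab1 (Anapc10) was called in ΔG9a-Glp ExE and 1 in ΔEed ExE. By Spearman, 3 of the 5 genes most like Gab1 and 2 of the 5 most like Smoc1 were shared. Depth limits Smoc1 most, with 338 reads in 7 wild type ExE libraries and 77 in 7 epiblast libraries.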
